A study of Mus musculus with 16 samples.

Results

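The immunoglobulin loci of the mouse were taken as 3 windows of build mm10. The heavy chain locus Igh was the window of chromosome 12 from 113200000 to 116100000, the kappa light chain locus Igk that of chromosome 6 from 67500000 to 70800000, and the lambda light chain locus Igl that of chromosome 16 from 19000000 to 19300000. Every peak of the deposited count table in a window was a member, whatever its values. This gave 183 of 82188 peaks (0.223%), with 42 in Igh, 116 in Igk and 25 in Igl. Each peak was 501 bp wide.

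Accessible chromatin had been profiled by Omni-ATAC, a form of ATAC-seq in which a transposase inserts adapters into open DNA, in splenic cells of C57BL/6 mice aged 8 to 10 weeks. Smarca4 encodes BRG1, the motor subunit of BAF complexes, which move nucleosomes. It was present in both copies in WT mice (Smarca4+/+) and in a single copy in HET mice (Smarca4+/-). Cells labelled CB and CC were profiled from each genotype, which gave 4 groups (WT CB, HET CB, WT CC and HET CC) of 4 libraries each. Strain, tissue and age range were shared by all groups. The labels do not spell out CB and CC, which are read here as centroblasts and centrocytes of the germinal center, and they name no sort gate and do not say how, or in which cells, the Smarca4 allele was lost. Nothing in them says that the 4 libraries of a group came from separate mice, so p-values measure the spread between these libraries, which may be technical. In such bulk libraries, fewer cells of a type and less accessibility per cell cannot be told apart.

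A B cell assembles its heavy chain gene from V, D and J segments and its light chain gene from V and J segments. The RAG recombinase cuts at recombination signal sequences, which flank each segment, and the assembled V exon is spliced to the exons of a constant gene. Expression of the assembled gene depends on enhancers that lie in the intron between J segments and constant gene and on the 3′ side of the constant genes. For Igk these are the intronic enhancer, the 3′ enhancer and the more distal enhancer Ed, and for Igl the enhancers that follow the constant gene clusters. In germinal centers the assembled V exons acquire point mutations. V segments form families of near-identical copies, and the sources used here do not say how reads that map to several copies were counted, so a value on a single V segment may include reads of a relative.

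RefSeq (GRCm38.p6, the assembly that mm10 denotes) places the promoters of 18 genes in the windows, from 250 bases before to 50 after the start. Of these, 4 lay wholly inside a member peak and 2 partly. The 3 of the 4 that lie among the segments of a light chain locus are shown because they are the member sequence on hand at which accessibility was measured. Capitals mark matches, on either strand, to the octamer ATGCAAAT (reverse ATTTGCAT), a known element of immunoglobulin promoters, to the E-box CAGGTG (reverse CACCTG), and to AGCT, which reads the same on both strands. No match overlaps another.
LOC108169192: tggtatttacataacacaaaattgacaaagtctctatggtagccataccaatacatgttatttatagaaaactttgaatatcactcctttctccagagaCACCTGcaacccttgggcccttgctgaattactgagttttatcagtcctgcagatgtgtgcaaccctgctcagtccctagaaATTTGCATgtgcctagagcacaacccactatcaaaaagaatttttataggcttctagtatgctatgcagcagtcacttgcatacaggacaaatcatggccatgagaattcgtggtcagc
Gm46961: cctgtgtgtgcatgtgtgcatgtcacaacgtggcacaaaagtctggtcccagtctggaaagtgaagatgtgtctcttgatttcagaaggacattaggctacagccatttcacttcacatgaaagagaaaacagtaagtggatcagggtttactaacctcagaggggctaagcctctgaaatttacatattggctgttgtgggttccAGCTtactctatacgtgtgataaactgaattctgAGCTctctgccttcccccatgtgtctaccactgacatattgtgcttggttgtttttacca
Gm35545: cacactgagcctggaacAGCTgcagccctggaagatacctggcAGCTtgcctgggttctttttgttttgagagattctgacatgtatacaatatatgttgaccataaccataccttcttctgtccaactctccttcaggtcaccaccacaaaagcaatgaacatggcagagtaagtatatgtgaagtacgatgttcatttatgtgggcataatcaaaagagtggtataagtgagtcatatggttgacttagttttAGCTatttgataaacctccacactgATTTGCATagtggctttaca
The first is at chr6:68880650-68880949 on the minus strand, in the Igk variable block under peak_28129. The second is at chr6:70718827-70719126 on the minus strand, between the last Igk V segment and Igkj1 under peak_28187. The third is at chr16:19218252-19218551 on the plus strand, between Iglj2 and Iglv3 under peak_69712. The octamer was found 1 time each in LOC108169192 and Gm35545, and in 1.74% of all 32851 promoters of the table. The E-box was found in LOC108169192 and in 20.21% of all promoters. AGCT was found 2 times in Gm46961, 3 times in Gm35545, and in 77.61% of all promoters. These matches describe the letters in the windows and are not evidence of binding.

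CC libraries were far shallower than CB libraries. The WT CB totals ran from 31696941 to 38798802 counts and the HET CB totals from 38716281 to 51011923, against 3494356 to 3750936 for WT CC and 5310327 to 7474760 for HET CC. A median peak held 215 to 267 counts in a WT CB library and 22 to 24 in a WT CC library. The members held 0.1185% to 0.1361% of the counts of every library. The 7 peaks inside Smarca4 were open in all groups, and none was called between genotypes (smallest adjusted p = 0.582 in CB and 0.552 in CC by edgeR). The assay reads the whole locus of both alleles and the labels do not place the deletion, so these peaks do not check the genotype. Peaks near B cell marker genes summed to 1177 to 1426 CPM (counts scaled to a fixed library total, here a total adjusted by the trimmed mean of M-values, TMM) over all libraries. Germinal center B cell markers summed to 972 to 1013 CPM in CB, 574 to 613 for WT CC and 659 to 782 for HET CC, with 7 of 48 peaks higher and 33 lower in WT CC. B cell markers had 9 of 74 higher and 30 lower there, and plasma cell markers 14 of 48 and 17, beside 30.2% higher and 27.7% lower of all peaks. Markers of T cells, naive or follicular B cells and myeloid cells were higher in CC, with values beside the results below.

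Members were unevenly spread. Igh held 14.5 peaks per Mb, Igk 35.2 and Igl 83.3, against 32.2 over the table. No peak of the table lies on chromosome 12 between 113245299 and 114378658, a stretch of 1133.4 kb that holds 67 V, 20 D, 4 J and 8 constant segments of Igh. The heavy chain constant genes, the intronic enhancer Eμ, the D and J segments and the V segments nearest to them are thus not analysed here. In Igh the members were 7 peaks on the 3′ side of Igha, the last constant gene and the side of the 3′ regulatory region, 28 in the variable block, and 7 beyond it around Zfp386. In Igk they were 6 before the variable block, 82 in it, 5 between the V and J segments, 3 in the intron between Igkj5 and Igkc, 1 on Igkc, 13 on the 3′ side of Igkc and 6 around Rpia. Igl held 4 on its J and constant clusters, 18 in the intervals between segments and 3 around Iglv3 and Iglv2. Peaks overlapped 18 of 183 annotated V segments of Igh (9.84%) and 35 of 162 of Igk (21.6%).

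The sum over all 183 members was nearly level across the groups, and its parts moved in opposite ways. Sums over a part are given as raw CPM, scaled by the plain total of all peak counts. All loci together took 1303 ± 17.8 raw CPM in WT CB, 1266 ± 22.1 in HET CB, 1296 ± 47.8 in WT CC and 1227 ± 29.2 in HET CC (SD, n = 4). The Igh variable block took 24.6, 28.2, 27.3 and 27.1 raw CPM in the WT CB libraries, 27.0, 20.8, 25.2 and 22.5 in HET CB, 76.2, 109.3, 93.7 and 98.1 in WT CC, and 87.2, 74.4, 82.1 and 69.4 in HET CC. Every CC library was above every CB library, at 3.52 times the CB mean in WT and 3.28 times in HET. The region 3′ of Igkc took 284 ± 7.16 raw CPM in WT CB, 279 ± 5.14 in HET CB, 185 ± 23.0 in WT CC and 187 ± 5.01 in HET CC (SD, n = 4). Here every CC library was below every CB library, at 0.652 times the CB mean in WT and 0.669 times in HET.

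The single peak on Igkc took 14.7, 15.4, 10.1 and 10.1 raw CPM on average in WT CB, HET CB, WT CC and HET CC, with CC at 0.689 times CB in WT, where libraries overlapped, and 0.655 times in HET, where they did not. The Igk variable block took 290 ± 13.4, 283 ± 10.4, 305 ± 14.7 and 273 ± 5.76 raw CPM in WT CB, HET CB, WT CC and HET CC (SD, n = 4), and CC overlapped CB in both genotypes. Its WT CC libraries (286 to 320) all lay above its HET CC libraries (267 to 279). The 3 intron peaks took 46.7, 44.1, 47.3 and 41.2 raw CPM on average in the same order, and again WT CC (45.3 to 49.1) and HET CC (39.4 to 43.9) did not overlap. The whole Igl locus took 274 ± 11.2, 252 ± 6.71, 285 ± 9.14 and 259 ± 16.6 (SD, n = 4), and its HET libraries lay below its WT libraries in CB and in CC. These sums carry no test, and no single peak in them was called between genotypes, as given below.

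**Figure D1:**
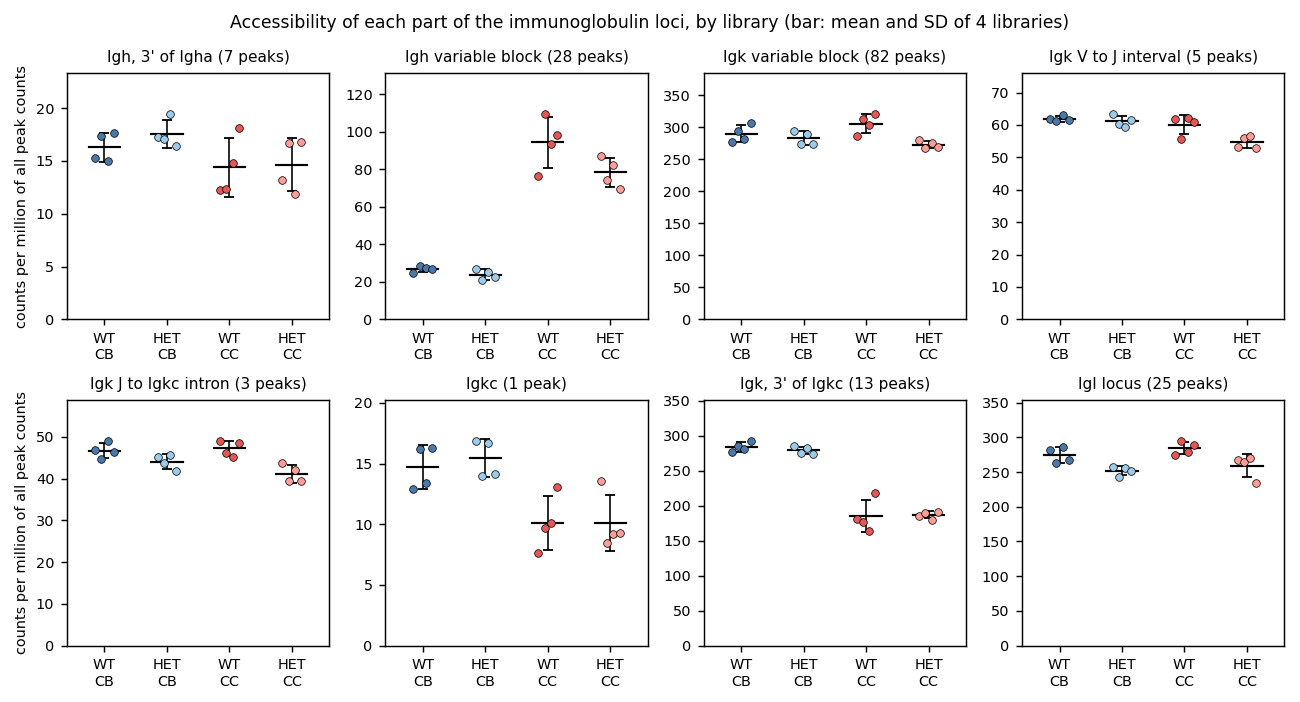
Raw CPM (y axis, from 0) taken by 8 parts of the loci in each library, with 4 points per group and bars for the mean and SD of 4 libraries. The Igh variable block is higher in every CC library (69.4 to 109.3) than in every CB library (20.8 to 28.2), and the region 3′ of Igkc is lower in CC (164 to 218) than in CB (274 to 293).

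CC against CB was the larger contrast. A peak is called here at an adjusted p below 0.05 in edgeR's quasi-likelihood test, with Benjamini-Hochberg adjustment over all 82188 peaks. In WT, 56 members were higher and 35 lower in CC, against 30.2% higher and 27.7% lower over the table. In HET, 50 were higher and 35 lower, against 30.8% and 28.1%. In both genotypes 42 were called higher and 27 lower, and 0 were called in opposite directions. The share of members called higher (56 of 183 in WT) was near that of the table, and the median log2 change of the members was 0.14 in WT and 0.05 in HET, against -0.01 and 0.00 over all peaks. By locus, Igh had 26 higher and 2 lower peaks in WT and 27 and 2 in HET, Igk 24 and 32 in WT and 20 and 32 in HET, and Igl 6 and 1 in WT and 3 and 1 in HET.

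Direction depended on the level of a peak over the whole table, which bears on every count of higher peaks. Peaks with a mean below 1 CPM had a median log2 change of 1.98 in WT and 2.02 in HET, those of 1 to 2 CPM 1.35 and 1.28, those of 2 to 4 CPM 0.23 and 0.31, and those of 8 to 16 CPM -0.29 and -0.25. When a smooth trend of each library against mean level was removed (loess, an alternative added after this trend was seen), the members split into 36 higher and 48 lower in WT and 28 and 50 in HET. Under that setting 25.5% of all peaks were higher and 27.8% lower in WT, and 26.1% and 28.4% in HET. The share of members called lower was thus near that of the table. The level trend may hold real change as well as depth, and its part in the results was not tested.

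The V segments of Igh rose nearly as a block in CC. Of the 28 peaks of the Igh variable block, 26 rose in CC in WT and 26 in HET, 25 of them in both, and 0 fell, beside 30.2% and 30.8% of all peaks called higher. The median log2 change was 2.19 in WT and 2.30 in HET. All 18 peaks that overlap a V segment rose in both genotypes (median 2.41 and 2.65), and of the 10 between V segments 8 rose in each (median 1.16 and 1.22). The peaks without a call were peak_58474, the one nearest to the stretch without peaks (0.16 and 0.10), peak_58487 in WT (0.97, adjusted p = 0.0755) and peak_58475 in HET (-0.11). The WT call of peak_58475 (0.93) was lost without WT CC replicate 4 (0.68, adjusted p = 0.0834).

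The peak on Ighv8-7, annotated as a V segment pseudogene, had the highest mean level of the block over all libraries, through its CC values (peak_58492, chr12:115257703-115258203). It measured 1.27, 1.69, 2.01 and 1.22 CPM in WT CB and 1.36, 1.03, 1.17 and 0.778 in HET CB. In WT CC it measured 10.0, 14.1, 15.8 and 11.5 CPM and in HET CC 8.94, 8.58, 11.5 and 7.14. The CC and CB libraries lay far apart in both genotypes, with log2 changes of 3.05 (SE 0.23, adjusted p = 8.23e-17 by edgeR) in WT and 3.06 (SE 0.22, adjusted p = 2.43e-17) in HET. It stayed at 2.94 and 2.92 once the level trend was removed.

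Further large rises sat on the V segments Ighv1-39, Ighv1-62-1 and Ighv1-74, from far fewer counts. The peak on Ighv1-39 (peak_58481) measured 0.166 to 0.483 CPM in WT CB and 2.06 to 3.83 in WT CC, and rose by 3.04 (SE 0.46) on the log2 scale in WT and 2.92 (SE 0.46) in HET. That on Ighv1-62-1 (peak_58495) rose by 3.07 (SE 0.53) and 3.16 (SE 0.51). It held 7 to 9 raw counts per library in WT CB and 3 to 15 in WT CC, not scaled for the greater depth of CB. That on Ighv1-74 (peak_58500) rose by 2.16 (SE 0.54) in WT and 3.20 (SE 0.42) in HET. After removal of the level trend these 3 peaks were not called, at 0.22 and 0.13 for peak_58481, -0.43 and -0.32 for peak_58495, and -0.77 and 0.29 for peak_58500.

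The V segment peaks shared a position that the choice of members did not use. Igh is read from high to low coordinates, with the constant genes at the low end, so the low-coordinate end of a V segment is its 3′ end, where the recombination signal sequence is joined to it. All 18 V segment peaks held the 3′ end of their segment, and 2 of 18 also held its 5′ end, the side of the promoter. They belonged to 2 families. The middles of the 14 peaks on Ighv1 segments lay within 67 bp of the 3′ end, 10 of them beyond it. The middles of the 4 peaks on Ighv8 segments all lay 148 to 191 bp beyond the 3′ end. On the peak-bearing side of the locus the annotation holds 116 V segments, 91 of Ighv1 and 15 of Ighv8, and 0 of the 10 segments of Ighv6, Ighv10 and Ighv15 had a peak. The median log2 change was 2.41 (WT) and 2.52 (HET) for the Ighv1 peaks and 2.40 and 2.93 for the Ighv8 peaks. The Igk annotation used here gives no strand and Igk V segments lie in both orientations, so they were not described in this way. These positions were looked at after the values were seen.

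**Figure D2:**
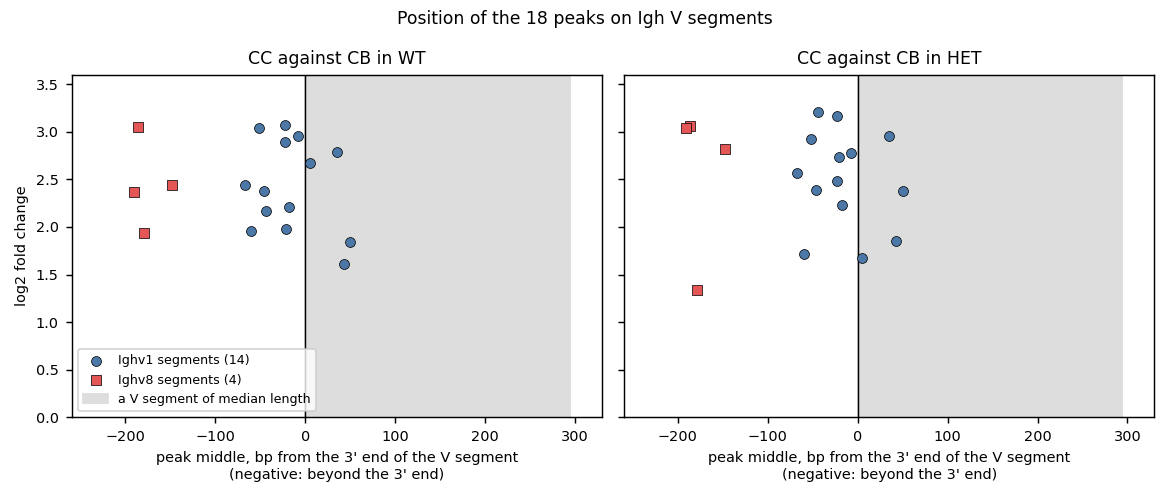
Log2 fold change of CC against CB (y axis) of the 18 peaks on Igh V segments against the distance in bp of the peak middle from the 3′ end of its segment (x axis, negative beyond the end), for WT and HET, with a V segment of median length shaded. The Ighv1 peaks sit within 67 bp of the 3′ end and the 4 Ighv8 peaks 148 to 191 bp beyond it, with changes of 1.61 to 3.07 in WT and 1.34 to 3.20 in HET.

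Depth and level limit the size and number of these rises. The median peak of the block held 8.5 to 12 counts in a WT CC library and 21.5 to 26.0 in a WT CB library. Peaks of the table at 1 to 2 CPM were higher in CC in 56.9% of cases in WT and 58.3% in HET, and the Igh variable peaks at that level in 15 of 16 and 16 of 16, with medians of 2.07 and 2.18. Igk variable peaks at the same level were higher in 4 of 15 in each genotype (medians 0.03 and -0.05). With the level trend removed, 5 (WT) and 6 (HET) of the 28 were called higher, beside 25.5% and 26.1% of all peaks under that setting, and the median was 0.22 and 0.10. After all libraries were thinned to the smallest total, 12 of the 28 could be tested and 9 and 10 were higher (medians 1.67 and 1.70). Under that setting 25.3% (WT) and 22.5% (HET) of all peaks tested were higher. The filter keeps a peak that has enough counts in any single group, so after thinning a peak could pass through its CC values. The rise among the peaks that passed is thus partly built in, and these counts are descriptions.

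**Figure D3:**
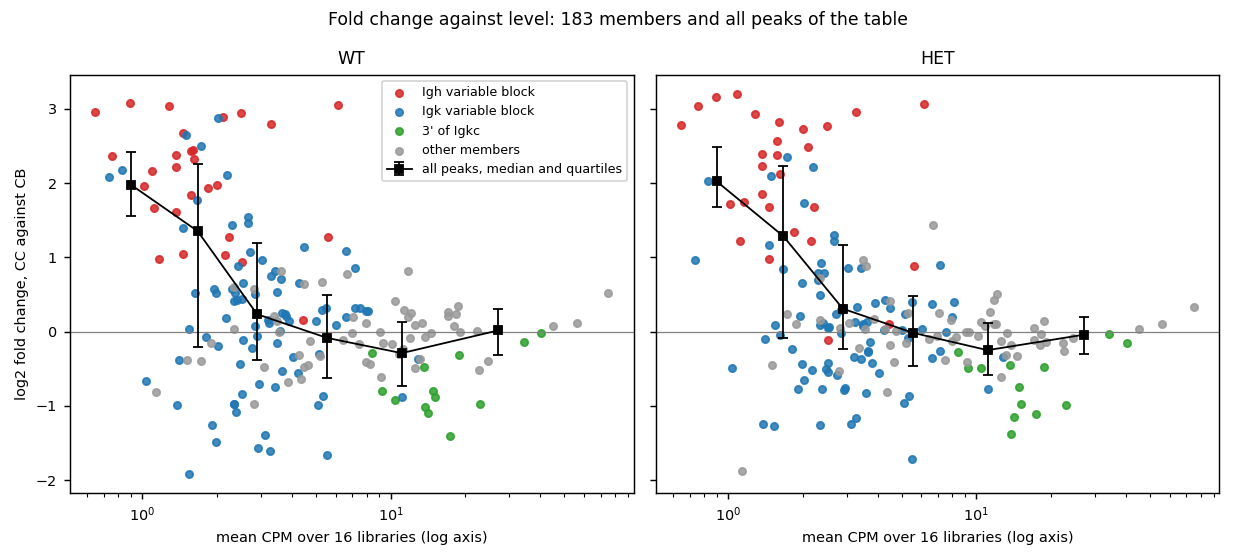
Log2 fold change of CC against CB (y axis) against the mean CPM over 16 libraries (x axis, log scale) for the 183 members, with the median and quartiles of all peaks in 6 level classes in black. All peaks fall from a median of 1.98 (WT) below 1 CPM to -0.29 at 8 to 16 CPM, and the Igh variable peaks lie mostly above the black line, peak_58492 farthest from it.

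Loci of T cells moved the same way. All 23 peaks of the T cell receptor locus Trb rose in CC (median 2.68 in WT and 2.62 in HET), as did all 3 of Trg (2.80 and 2.21), while no peak of the table lies in Tra and Trd. Of the 50 peaks near 11 T cell marker genes, 38 were higher and 2 lower in WT CC, and 41 and 2 in HET CC (medians 2.20 and 2.27). Over all peaks 30.2% were higher and 27.7% lower in WT, and 30.8% and 28.1% in HET. Median levels were 2.16 CPM for Trb, 2.79 for Trg and 3.38 for the T cell markers. Of all peaks at 2 to 4 CPM, 35.8% (WT) and 40.3% (HET) were higher, and the part of level in these rises was not tested. The T cell marker peaks summed to 172 to 184 CPM for WT CB, 157 to 170 for HET CB, 347 to 395 for WT CC and 282 to 337 for HET CC. The 2 peaks near Cd3e, a chain of the T cell receptor complex, summed to 0.92 and 0.84 CPM in WT and HET CB and 5.99 and 6.15 in CC, and those near Cd8a 0.86 and 0.67 against 6.90 and 7.03. The single peaks near Lck, a T cell kinase (2.59 and 2.52 against 2.25 and 2.29), and near Cd2 (4.70 and 4.70 against 3.23 and 4.03) were not called in WT, Cd4 had 1 of 5 higher and 2 lower, and Cd28 had no peak. None of the other 11 genes had a group mean of 0. The part of T cells in the rise of the Igh V segments was not tested. Other lists with more higher than lower peaks in WT CC were naive or follicular B cell markers (24 of 35 higher and 2 lower), myeloid markers (16 of 24 and 0) and NK cell markers (8 of 15 and 3), and their part was not tested either.

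The 3′ side of Igha was at low levels in all groups. Its 7 peaks, which lie 11155 to 40111 bp beyond Igha, had mean levels of 1.14 to 3.38 CPM, and together took 16.3 ± 1.37 raw CPM in WT CB, 17.5 ± 1.32 in HET CB, 14.4 ± 2.77 in WT CC and 14.6 ± 2.50 in HET CC (SD, n = 4). One fell in each genotype, and not the same one, beside 27.7% and 28.1% of all peaks called lower. Peak_58468 (31553 bp beyond Igha) measured 3.46, 3.11, 3.58 and 4.19 CPM in WT CB and 3.89, 0.589, 1.13 and 1.64 in WT CC, with a log2 change of -0.97 (SE 0.34, adjusted p = 0.0128 by edgeR) in WT and -0.53 (adjusted p = 0.0754) in HET. The call was lost without WT CC replicate 2 (-0.69, adjusted p = 0.0973) or replicate 3 (-0.79, adjusted p = 0.0659), and HET was called without HET CC replicate 2 (-0.89, adjusted p = 0.0129). Peak_58473, the peak nearest to Igha, held 74 to 89 raw counts per HET CB library and 0 to 6 per HET CC library. These counts are not scaled for the greater depth of CB. With scaling, the peak fell by 1.88 (SE 0.45, adjusted p = 0.000284) on the log2 scale in HET, and its change in WT was -0.81 (adjusted p = 0.153). It was called in both once the level trend was removed, at -3.20 and -4.23. The most accessible of the 7, peak_58470, changed by 0.22 in WT and -0.22 in HET, neither called.

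Beyond the Igh V segments, the peak at the start of the zinc finger gene Zfp386 (peak_58504) was the most accessible peak of the window. It measured 52.7 ± 4.78 CPM in WT CB, 55.2 ± 0.794 in HET CB, 57.0 ± 6.46 in WT CC and 59.2 ± 5.68 in HET CC (SD, n = 4), and was not called in CC against CB (0.12 and 0.11). With the level trend removed it was -0.20 (adjusted p = 0.0238) in WT. Peak_58506, inside Zfp386, fell by 0.52 in WT and 0.26 in HET, and with the level trend removed the HET change was not called (-0.10).

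On the constant side of Igk accessibility fell in CC at most peaks. Of the 13 peaks 3′ of Igkc, 9 fell in CC in WT and 10 in HET, 9 of them in both, and 0 rose, beside 27.7% and 28.1% of all peaks called lower. Their median log2 change was -0.81 in WT and -0.49 in HET. The median level of these 13 peaks was 14.8 CPM. Of all peaks at 8 to 16 CPM 45.6% were lower in WT and 46.4% in HET, and of those above 16 CPM 29.8% and 34.4%. After removal of the level trend the medians of the 13 were -0.53 and -0.29, with 8 called lower in WT and 7 in HET. Under that setting 27.8% and 28.4% of all peaks were lower.

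The largest falls were at the far end of this region. Peak_28203 (chr6:70764490-70764990, 37986 bp beyond Igkc) measured 24.94, 24.97, 22.81 and 26.97 CPM in WT CB and 24.6, 23.3, 24.9 and 22.8 in HET CB. In WT CC it measured 9.17, 10.9, 9.30 and 8.21 CPM and in HET CC 12.04, 8.84, 9.25 and 14.4. All CC libraries were below all CB libraries, with log2 changes of -1.41 (SE 0.14, adjusted p = 1.41e-12 by edgeR) and -1.10 (SE 0.11, adjusted p = 3.14e-12). Its neighbour peak_28204 fell by 1.02 and 1.37 and peak_28202, 36014 bp beyond Igkc, by 1.10 and 1.15. Nearer to Igkc, peak_28197 (13941 bp) fell by 0.98 in both genotypes, from 30.2 ± 2.37 to 15.3 ± 3.97 CPM in WT (SD, n = 4), and peak_28192 (428 bp) by 0.81 and 0.75. All of these stayed called with the level trend removed, at -1.15 and -0.87 for peak_28203.

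The 2 most accessible peaks of the region were not called in either genotype, while most of their neighbours fell. The least accessible peak of the region, 4217 bp beyond Igkc, was not called in either genotype as well (-0.292 and -0.275). Of all peaks above 16 CPM, the level class of the 2 most accessible peaks, the median log2 change was 0.015 in WT and -0.042 in HET. Peak_28196 (chr6:70735417-70735917) lies 8913 bp beyond Igkc, about where the 3′ enhancer of Igk is known to lie. It measured 41.6, 40.9, 41.8 and 45.5 CPM in WT CB, 44.1, 38.9, 40.8 and 39.9 in HET CB, 49.2, 33.9, 40.0 and 44.9 in WT CC, and 35.6, 38.4, 34.0 and 38.0 in HET CC. In WT the CC and CB libraries overlapped, with a log2 change of -0.01 and a 95% interval from -0.18 to 0.15. In HET every CC library was below every CB library, and the change of -0.16 (interval -0.31 to -0.01) was not called (adjusted p = 0.0695 by edgeR). It was called there by DESeq2 (-0.18, adjusted p = 0.0266), in a fit of the 2 groups alone (-0.16, adjusted p = 0.0446) and with the level trend removed (-0.22, adjusted p = 0.0103).

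Peak_28198 (chr6:70743832-70744332), 17328 bp beyond Igkc and about where the enhancer Ed lies, measured 35.3, 35.3, 35.7 and 36.5 CPM in WT CB and 30.6, 31.8, 28.8 and 38.0 in WT CC. In HET it measured 35.3, 36.2, 35.5 and 33.4 CPM in CB and 31.3, 40.4, 32.8 and 31.8 in CC. The groups overlapped in both genotypes. The log2 change was -0.14 (interval -0.32 to 0.04) in WT and -0.03 (interval -0.18 to 0.12) in HET, and without WT CC replicate 4 the WT change was called (-0.23, adjusted p = 0.0465). Both intervals leave out the change of -0.98 of peak_28197, which lies between these peaks. Both peaks, and peak_28197, lie inside the RefSeq gene Gm30211. The difference between neighbouring peaks itself was not tested.

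Igkc and the intron before it are given as further members of this side. The peak on Igkc (peak_28191) measured 12.7, 16.1, 13.2 and 16.2 CPM in WT CB, 16.7, 13.9, 16.7 and 14.0 in HET CB, 7.78, 10.0, 10.1 and 13.4 in WT CC, and 13.6, 8.31, 9.25 and 9.16 in HET CC. CC was lower, with overlap in WT, by 0.49 (SE 0.16, adjusted p = 0.00844 by edgeR) in WT and by 0.62 (SE 0.14, adjusted p = 0.000115) in HET. The WT call was lost without WT CC replicate 1 (-0.37, adjusted p = 0.074) and with the level trend removed (-0.20). The 3 peaks of the intron, where the intronic enhancer lies, were not called in either genotype. The highest, peak_28190, 633 bp before Igkc, measured 19.97 ± 0.566 CPM in WT CB, 18.9 ± 1.07 in HET CB, 19.9 ± 4.26 in WT CC and 17.2 ± 1.90 in HET CC (SD, n = 4). Its changes were 0.00 and -0.14, those of peak_28188 0.09 and -0.12, and those of peak_28189 0.12 and -0.02. With the level trend removed, peak_28188 (0.38, adjusted p = 0.0159) and peak_28189 (0.41, adjusted p = 0.00896) were called higher in WT.

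**Figure D4:**
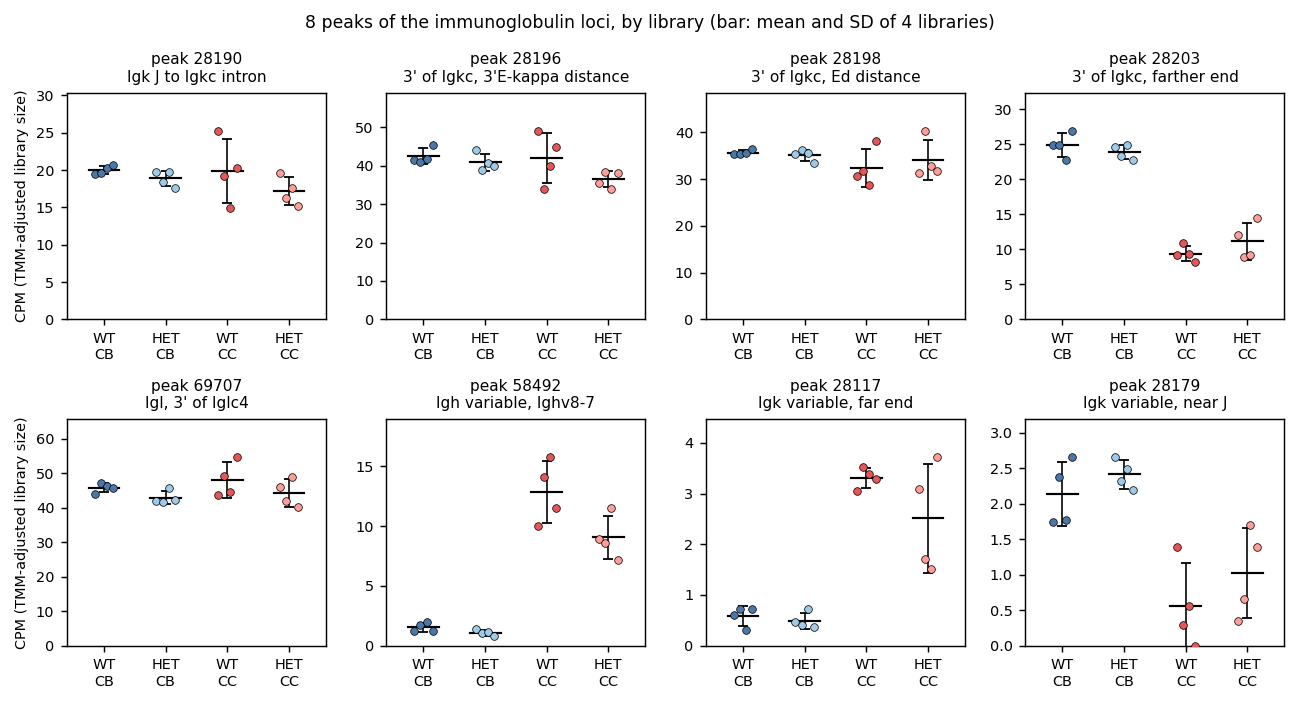
CPM (y axis, from 0) of 8 member peaks in each library, with 4 points per group and bars for the mean and SD. The peaks in the intron, at 8913 and 17328 bp beyond Igkc and 15633 bp 3′ of Iglc4 were not called, peak_28203 falls from 22.8 to 27.0 CPM in CB to 8.21 to 14.4 in CC, and the Ighv8-7 peak rises from 0.778 to 2.01 CPM to 7.14 to 15.8.

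The interval between the V and J segments of Igk, which holds elements that are known to restrain V to J joining, had 5 peaks that moved in different ways. Peak_28184, 8125 bp before Igkj1, rose in both genotypes. It measured 9.80, 9.19, 9.58 and 8.10 CPM in WT CB, 13.9, 15.6, 19.7 and 15.6 in WT CC, 9.91, 8.53, 8.80 and 9.70 in HET CB, and 12.04, 12.14, 12.08 and 13.19 in HET CC. The groups did not overlap in either genotype, and the log2 change was 0.82 (SE 0.14, adjusted p = 1.41e-06 by edgeR) in WT and 0.42 (SE 0.13, adjusted p = 0.00359) in HET. Its neighbour peak_28185, 5971 bp before Igkj1, fell by 0.61 and 0.41, and peak_28186 fell by 0.37 and 0.31. Both lost their calls with the level trend removed (-0.34 and -0.20, and -0.08 and -0.07). The calls of peak_28186 were lost in WT without WT CC replicate 2 (adjusted p = 0.125) or replicate 4 (adjusted p = 0.138), and in HET without HET CB replicate 1 (adjusted p = 0.0606) or HET CC replicate 4 (adjusted p = 0.0958). That of peak_28185 was lost in HET without HET CC replicate 1 (adjusted p = 0.0646).

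The most accessible peak of the interval, peak_28183, was not called (0.07 and -0.18). Peak_28187, which holds the Gm46961 promoter shown above, measured 8.37 ± 0.653 CPM in WT CB, 8.00 ± 0.604 in HET CB, 7.45 ± 1.04 in WT CC and 6.04 ± 1.91 in HET CC (SD, n = 4). Its change was -0.17 in WT and -0.38 (adjusted p = 0.0427 by edgeR) in HET. The HET call was lost without any 1 of HET CB replicates 2 and 4 and HET CC replicate 3, which held 3.21 CPM, and with the level trend removed. Beyond the 3′ region, the peak at the start of Rpia (peak_28208), an enzyme gene of the pentose phosphate pathway, rose by 0.52 and 0.33 and was not called with the level trend removed (0.05 and 0.01).

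**Figure D5:**
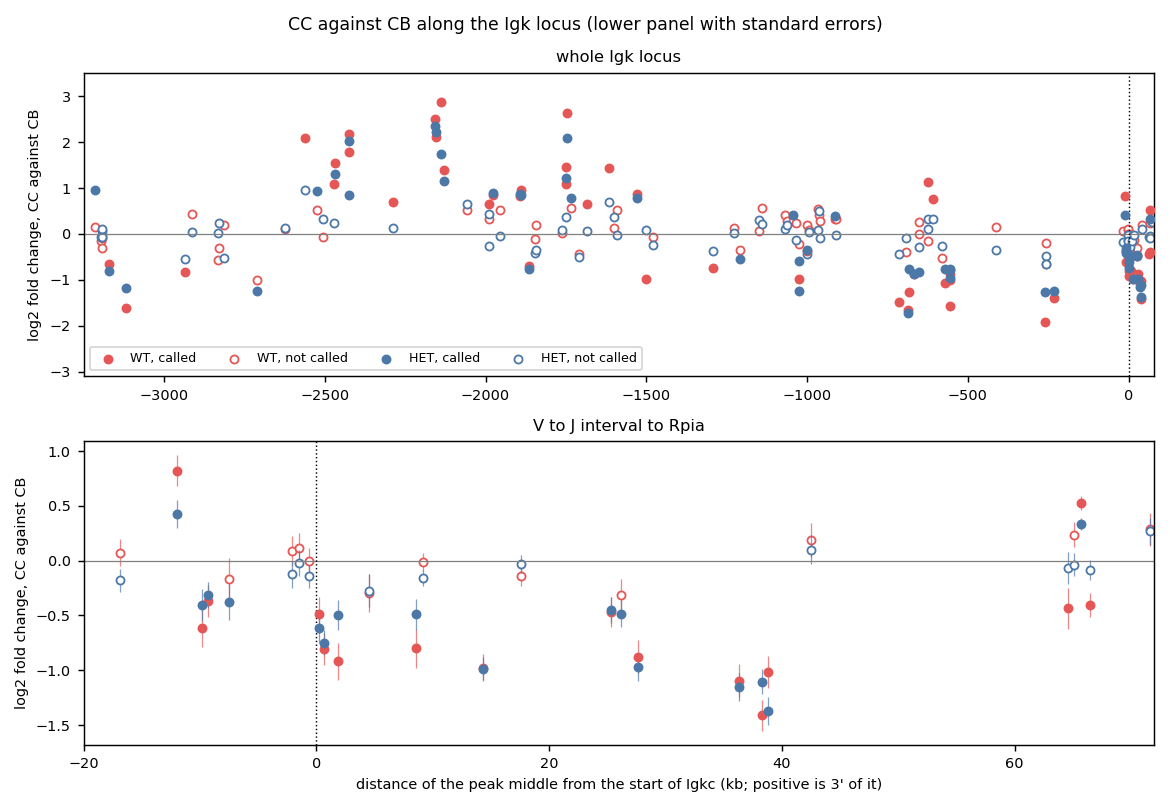
Log2 fold change of CC against CB (y axis) along Igk against the distance in kb of the peak middle from the start of Igkc (x axis), for WT and HET, filled where called, with standard errors in the lower panel. In the lower panel most peaks from Igkc to 38.8 kb beyond it fall, down to -1.41, while those at 9.2 and 17.6 kb lie near 0, and in the upper panel the 3 largest WT rises lie at -1746.2, -2139.5 and -2155.7 kb.

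The Igk variable block had no common direction. Of its 82 peaks, 22 rose and 17 fell in CC in WT, and 17 rose and 17 fell in HET, with 13 higher and 13 lower in both. Over all peaks 30.2% were higher and 27.7% lower in WT, and 30.8% and 28.1% in HET. The 45 peaks on a V segment split into 15 higher and 10 lower in WT and 11 and 10 in HET, and the 37 between V segments into 7 and 7, and 6 and 7. Direction varied along the block, in bins chosen after the values were seen. Within 1000 kb of Igkj1, 2 of 28 peaks rose and 11 fell in WT (1 and 11 in HET). From 1000 to 2000 kb, 10 of 33 rose and 4 fell (8 and 4), and from 2000 to 3500 kb 10 of 21 rose and 2 fell (8 and 2). The rises of the far part were concentrated at 2000 to 2500 kb, with 9 of 10 higher and 0 lower in WT and 7 and 0 in HET (medians 1.66 and 1.24). Level fell along the block as well. The median level was 3.545 CPM within 1000 kb, 2.84 from 1000 to 2000 kb, 2.365 from 2000 to 3500 kb and 2.004 at 2000 to 2500 kb. Over the table, peaks of 2 to 4 CPM had a median log2 change of 0.23 in WT and 0.31 in HET, and those of 1 to 2 CPM 1.35 and 1.28. The part of level in this variation was not tested.

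Among the far peaks, both peaks on Igkv12-98 rose. Peak_28117 measured 0.608, 0.722, 0.305 and 0.721 CPM in WT CB, 0.461, 0.400, 0.728 and 0.369 in HET CB, 3.06, 3.53, 3.38 and 3.28 in WT CC, and 3.10, 1.72, 1.51 and 3.72 in HET CC. The groups did not overlap, and the change was 2.49 (SE 0.40, adjusted p = 2.78e-07 by edgeR) in WT and 2.35 (SE 0.37, adjusted p = 1.95e-07) in HET. It was not called once the level trend was removed (0.65 and 0.55), while peak_28118, on the same segment, was (0.88 and 1.03, against 2.10 and 2.21 before). Peak_28119, 4432 bp from Igkv15-97, rose by 2.87 and 1.74, and peak_28134, 531 bp from Igkv13-82, by 2.64 and 2.10. With the level trend removed, peak_28119 was called in WT only (1.29 and 0.21) and peak_28134 in neither genotype (0.46 and -0.05).

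Falls were largest nearer to the J segments. Peak_28165, 3102 bp from Igkv8-34, measured 7.93, 7.56, 7.87 and 8.62 CPM in WT CB, 7.37, 9.39, 8.89 and 9.63 in HET CB, 3.89, 0.883, 3.38 and 1.92 in WT CC, and 2.24, 1.98, 4.34 and 2.48 in HET CC. Every CC library was below every CB library, and it fell by 1.66 (SE 0.26, adjusted p = 2.11e-07 by edgeR) in WT and by 1.72 (SE 0.21, adjusted p = 2.6e-10) in HET. Peak_28179, 7895 bp from Igkv6-13, fell by 1.91 and 1.27 from low counts (0 to 5 in WT CC). Peak_28101, at the opposite end of the block, fell by 1.61 and 1.17. The most accessible peak of the block, on Igkv5-48 (peak_28156, 12.8 CPM over all libraries), fell by 0.37 (adjusted p = 0.0257) and 0.35 (adjusted p = 0.0138). Its WT call was lost without WT CB replicate 4 or WT CC replicate 1 or 4, its HET call without HET CC replicate 3 (adjusted p from 0.0602 to 0.102), and both with the level trend removed. Peak_28129, which holds the LOC108169192 promoter shown above, measured 2.97 ± 0.197, 2.51 ± 0.378, 2.78 ± 1.49 and 1.88 ± 0.374 CPM in WT CB, HET CB, WT CC and HET CC (SD, n = 4). Its changes of -0.11 and -0.42 were not called, and with the level trend removed the HET change was (-0.83, adjusted p = 0.00754).

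Igl had few calls. Of its 25 peaks, 6 rose and 1 fell in CC in WT and 3 and 1 in HET, below the 30.2% higher and 27.7% lower of all peaks. Its most accessible peak (peak_69707, chr16:19179116-19179616) lies 15633 bp 3′ of Iglc4, on the side where the enhancer of that cluster is known to lie. It measured 44.0, 47.1, 46.2 and 45.7 CPM in WT CB, 41.9, 41.7, 45.7 and 42.3 in HET CB, 43.6, 49.2, 44.5 and 54.7 in WT CC, and 45.9, 42.0, 48.9 and 40.2 in HET CC. The groups overlapped, and the log2 changes of 0.07 (SE 0.08) and 0.04 (SE 0.07) were not called. Between it and Iglc4, peak_69709 rose by 0.78 (SE 0.20, adjusted p = 0.000834 by edgeR) in WT, from 4.76 ± 0.682 to 8.20 ± 1.32 CPM, and by 1.43 (SE 0.17, adjusted p = 1.64e-10) in HET, from 3.69 ± 0.561 to 9.96 ± 1.89 (SD, n = 4). All CC libraries were above all CB libraries at this peak.

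Near the J and constant segments of Igl, peak_69710, 272 bp from Iglc2, rose by 0.81 and 0.89, and peak_69711, on Iglj2, by 0.64 in WT (0.42 in HET, adjusted p = 0.0557 by edgeR). Peak_69697, on Iglj3, rose by 0.34 in WT, a call lost without WT CC replicate 1 (0.22, adjusted p = 0.138), and its change in HET was 0.14. Peak_69695, 275 bp from Iglc3, fell by 0.68 (adjusted p = 0.0226) in WT, a call lost without WT CC replicate 3 (adjusted p = 0.0715) or 4 (adjusted p = 0.125), and its change in HET was 0.16. Peak_69712, which holds the Gm35545 promoter shown above, measured 4.46, 4.99, 3.89 and 5.18 CPM in WT CB and 9.73, 6.77, 5.92 and 6.84 in WT CC. It rose by 0.66 (SE 0.20, adjusted p = 0.00382) in WT without overlap, a call lost without WT CC replicate 1 (0.50, adjusted p = 0.0549), and its change in HET was 0.25 (adjusted p = 0.244).

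No member was called between HET and WT. In CB, HET was higher at 0.00243% and lower at 0.127% of all peaks, and at 0 of 183 members in either direction, with 9 members at an unadjusted p below 0.05 (6494 of 82188 over the table) and a smallest adjusted p of 0.274 (edgeR). DESeq2 also called 0. In CC, HET was higher at 1.08% and lower at 0.979% of all peaks, and again at 0 members, with 27 at an unadjusted p below 0.05 (14131 of 82188 over the table) and a smallest adjusted p of 0.0651. DESeq2 called 3 lower there, of 154 members it tested, beside 3.16% of all peaks it tested. The interaction is the difference between the genotype effects in CC and CB. It was higher in 0.128% and lower in 0.0316% of all peaks, and 0 members were called in either direction. At an unadjusted p below 0.05 there were 16 members (9338 of 82188 over the table). DESeq2 called 0 of the 87 members it tested, beside 1.48% higher and 0.945% lower of all peaks it tested. No member's change from CB to CC thus passed the test of a difference between WT and HET, which does not show that the changes are equal.

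Without a call, the members leaned to lower values in HET. In CB 121 of 183 log2 differences were negative (43884 of 82188 over the table), with a median of -0.06, and in CC 120 were (41355 of 82188), with a median of -0.15. Of the 25 Igl peaks 23 were negative in CB and 20 in CC, and of the 28 Igh variable peaks 24 and 22 (medians -0.25 and -0.28). Neighbouring peaks share libraries, so these counts are descriptions. With the level trend removed the median over the members was -0.03 in CB and -0.09 in CC, and that of the Igh variable block 0.00 and 0.02. Marker sums differed between genotypes in CC as well, where 1.08% of all peaks were called higher and 0.979% lower in HET. Naive or follicular B cell markers summed to 731 to 842 CPM for WT CC and 623 to 689 for HET CC (0 of 35 peaks higher and 5 lower in HET), T cell markers to 347 to 395 and 282 to 337 (0 and 0 of 50), and germinal center markers had 12 of 48 peaks higher in HET CC and 0 lower. Their part in the lower values was not tested.

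The 3 members that DESeq2 called lower in HET CC all lie in the Igk variable block. Peak_28133, 1106 bp from Igkv13-82, measured 10.8, 5.005, 13.8 and 11.8 CPM in WT CC and 6.54, 5.28, 8.12 and 5.74 in HET CC, which overlap through 1 low WT library. The log2 difference was -0.72 (SE 0.22, adjusted p = 0.0651 by edgeR, 0.012 by DESeq2). Without WT CC replicate 2, the low library, it was called (-0.94, adjusted p = 0.0234), as it was without HET CC replicate 3 (-0.84, adjusted p = 0.0302). In CB the same peak stood at 4.89 ± 0.223 CPM in WT and 4.86 ± 0.480 in HET (SD, n = 4). Peak_28171, 2355 bp from Igkv8-31, measured 7.23, 4.12, 8.46 and 9.03 CPM in WT CC and 3.96, 3.30, 6.80 and 2.79 in HET CC, a difference of -0.82 (adjusted p = 0.0824 by edgeR, 0.0193 by DESeq2). It was called without HET CC replicate 3 (-1.12, adjusted p = 0.0149). Peak_28119 stood at 4.60 ± 1.34 CPM in WT CC and 2.21 ± 0.548 in HET CC (SD, n = 4), a difference of -1.08 (adjusted p = 0.106 by edgeR, 0.0314 by DESeq2). In the interaction none of the 3 was called by either tool.

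Genes that act on these loci are given as context, from lists of regulators, recombination and mutation factors, and partners of the immunoglobulin chains, with peaks inside the gene or within 10 kb. Near the 25 regulators (489 peaks) 112 peaks rose and 201 fell in WT CC, and 102 and 202 in HET CC (medians -0.19 and -0.17, against -0.01 and 0.00 over all peaks). Over all peaks 30.2% were higher and 27.7% lower in WT, and 30.8% and 28.1% in HET. The median level of this list was 10.6 CPM, and of all peaks at 8 to 16 CPM 16.1% were higher and 45.6% lower in WT (16.6% and 46.4% in HET). Pax5, Ebf1 and Pou2af1 are transcription factors or a coactivator that bind immunoglobulin promoters or enhancers. Their peaks had no or few rises in WT, with 2 higher and 12 lower of 23 near Pax5, 0 and 30 of 50 near Ebf1, and 0 and 6 of 7 near Pou2af1. Bach2, a repressor of plasma cell fate, went the other way, with 27 of 42 peaks higher and 5 lower, as did Prdm1, the plasma cell regulator, with 7 of 12 and 0.

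Near the 16 recombination and hypermutation genes (82 peaks) 14 rose and 36 fell in WT CC, and 13 and 39 in HET CC. Over all peaks 30.2% were higher and 27.7% lower in WT. The median level of this list was 9.29 CPM, and of all peaks at 8 to 16 CPM 16.1% were higher and 45.6% lower in WT. Hmces, which encodes a protein that shields abasic sites in DNA, had 6 of 8 peaks lower in WT, and its summed level was 162 CPM in WT CB, 159 in HET CB, 82.7 in WT CC and 90.2 in HET CC. Of the 2 peaks near each recombinase gene, 1 rose at Rag1 and 2 at Rag2 in WT. They summed to 5.26 and 4.22 CPM in WT CB and 19.04 and 21.0 in WT CC. A peak within 10 kb of 2 genes counts for both. The peak numbers of the single genes add up to more than the 82 peaks of the list, so a peak was counted for 2 genes. The Rag1 and Rag2 values may share it and are not independent then. Dntt, which adds bases at junctions, was at 10.1 and 20.6 CPM with 3 of 4 peaks higher. Between genotypes in CC, 8 peaks of this list were higher in HET and 0 lower, and 8 higher and 2 lower near the regulators, beside 1.08% and 0.979% of all peaks. Near the 8 partner genes with a peak (49 peaks) 8 rose and 26 fell in WT CC, and 9 and 24 in HET CC. The median level of this list was 16.8 CPM, and of all peaks above 16 CPM 32.6% were higher and 29.8% lower in WT. Jchain, which joins IgM and IgA chains, had 5 of 6 peaks lower in WT, at 104 CPM in WT CB and 42.8 in WT CC, and Cd79a, a signaling chain of the B cell receptor, had 5 of 11 higher and 2 lower.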

How the data were processed

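Omni-ATAC libraries (16) had been summarised by the authors as a deposited table of raw counts per peak, not normalized, over 82188 peaks of 501 bp in mm10. Per the submitters' processing notes, tools included R 4.2.1, deepTools, BWA and FastQC. The peak caller, the counting and the handling of reads that map to several places are not given in the sources used here. Segments and genes came from RefSeq GRCm38.p6, and a peak belonged to the part that its middle lay in.

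Counts were fitted with edgeR 4.0.16 in R 4.3.3: TMM, filterByExpr (which removed 0 peaks), and 1 robust quasi-likelihood fit to the 16 libraries, each group with its own coefficient. P-values were adjusted by Benjamini-Hochberg over the whole table. The 5 comparisons were genotype within each cell label, cell label within each genotype, and the interaction. All adjusted p-values are from this test unless DESeq2 (1.42.0) is named. A 95% interval is the log2 change ± 1.96 SE. The test was checked on simulated counts, with the same spread for all peaks and with changes planted only in peaks with a mean of at least 20 counts. Of the 28 Igh variable peaks 11 reach that mean, so the check does not cover the others. Alternatives were other scalings, filters, thresholds, sets of libraries, a replicate block and DESeq2, and, added after values were seen, a loess trend and thinning.

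Named peaks were the highest of each part, the nearest to each constant gene, and per comparison and locus up to 3 called rises and 3 falls with the largest change and no overlap of libraries. The peaks peak_28119, peak_28129, peak_28133, peak_28171, peak_28184, peak_28185, peak_28186, peak_28187, peak_28188, peak_28189, peak_28192, peak_28197, peak_28198, peak_28202, peak_28203, peak_58468, peak_58474, peak_58475 and peak_58487 were named after their values were seen. The members and lists were chosen with earlier results of these data known. Marker lists were B cell, germinal center B cell, plasma cell, naive or follicular B cell, T cell, NK cell and myeloid cell. Values of 1 gene of the lists are not reported here.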

Additional observations from a re-analysis of the deposited data

Results flagged for a closer look

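In 276 groups of 4 libraries (17 parts and 52 peaks), 19 had a library farther from the others than Dixon's test allows. Chance gives about 1 in 20, and no cause was tested.

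Of the parts, in raw CPM, Igkc in HET CC held 13.54 in replicate 1 (others 8.428 to 9.264), and the Igl intervals in HET CC held 182.5 in replicate 4 (others 209.2 to 209.8). The Igl variable part in WT CC held 31.6 in replicate 3 (others 41.32 to 42.07). The whole Igk locus in WT CC held 855.0 in replicate 4 (others 793.6 to 799.6), and the whole Igl locus in HET CC 234.3 in replicate 4 (others 263.8 to 269.7).

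Of the HET CC peaks, in CPM, replicate 3 stood apart at peak_28183 with 20.39 (others 14.62 to 15.21) and at peak_28187 with 3.209 (others 6.674 to 7.388). Replicate 4 did so at peak_69709 with 7.139 (others 10.76 to 11.01) and at peak_28184 with 13.19 (others 12.04 to 12.14). Replicate 1 did so at peak_69697 with 20.47 (others 16.92 to 17.41) and at peak_58474 with 2.408 (others 5.097 to 5.409), and replicate 2 at peak_28198 with 40.37 (others 31.3 to 32.85).

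Of the WT CC peaks, replicate 1 stood apart at peak_58473 with 0.0 CPM (others 1.095 to 1.178) and at peak_28189 with 12.51 (others 15.01 to 15.32), and replicate 2 at peak_28129 with 5.005 (others 1.915 to 2.255). In WT CB, peak_28134 held 0.596 in replicate 2 (others 0.4227 to 0.4436). In HET CB, peak_69707 held 45.68 in replicate 3 (others 41.75 to 42.26), peak_28171 3.53 in replicate 3 (others 3.2 to 3.209), and peak_28192 18.72 in replicate 1 (others 19.6 to 19.77).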

How the results depend on the processing

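With the loess trend removed, 36 (WT) and 28 (HET) of 183 members were higher in CC, and 5 and 6 of the 28 peaks of the Igh variable block. Of all peaks, 25.5% and 26.1% were higher under that setting. The change reversed at peak_28134 in HET (-0.0475), peak_58487 (WT -1.2737, HET -0.4933), peak_58495 (WT -0.4293, HET -0.3178), peak_58500 in WT (-0.7688) and peak_58504 in WT (-0.1987). The cause was not tested. Fewer peaks were tested with a mean of at least 20 counts (162 of 183 members) and after thinning (142 of 183). The first gave 33 higher members in HET. In the Igh variable block it left 11 of 28 peaks to test, of which 10 (WT) and 9 (HET) were higher. The share over all peaks was not taken for this setting. Thinning gave 25 and 22 higher members, 18 lower in HET, and 9 and 10 higher of the 12 tested in the block. Of all peaks tested after thinning, 25.3% (WT) and 22.5% (HET) were higher and 19% lower in HET. At an adjusted p below 0.01, 23 members were lower in WT. DESeq2 called 3 members lower in HET CC than in WT CC. Leaving out 1 library gave 0 to 2 there.

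Of 623 values of named peaks under settings other than leaving out a library, 573 kept their side of the threshold, 21 lost and 22 gained a call, and 7 reversed. The sign changed in 19, these 7 included. Of 832 with 1 library left out, 802 kept their side, 20 lost and 10 gained a call, and 0 called values reversed. The sign changed in 23, none of them called.

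Deviations of same-numbered libraries correlated weakly, by 0.032 to 0.073 between CB and CC of a genotype and by -0.14 to 0.009 between genotypes. The numbers were not taken as pairs in the main fit because the labels do not say that a number marks a shared animal. Few counts per peak in CC weaken such correlations, so these values cannot exclude pairing. With a replicate block, 55 (WT) and 49 (HET) members were higher and 34 and 32 lower in CC, and 26 and 26 in the Igh variable block were higher. The call of peak_28187 in HET was lost (adjusted p = 0.0562). In 7 of 8 CB to CC pairs the library correlated best with its own number, a hint from the data that the labels do not state. With the block nested in genotype, 54 and 46 members were higher and 34 and 33 lower. Depth limits CC most: low peaks there rest on few counts.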
